A study of Saccharomyces cerevisiae with 8 samples.

Results

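Cryptic unstable transcripts (CUTs) are short non-coding RNAs that RNA polymerase II makes from the edges of promoters and terminators in budding yeast. The Nrd1-Nab3-Sen1 complex ends their transcription early, the TRAMP complex adds a short tail, and the nuclear exosome with its subunit Rrp6 degrades them, so that little of each CUT remains in cells in which these factors work. Many start in the same nucleosome-poor region as a gene and run away from it, and others run antisense into a neighbouring gene. Other classes in the same table served for comparison, the stable unannotated transcripts (SUTs) and the XUTs, which the cytoplasmic exonuclease Xrn1 degrades.

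The table held 11436 transcripts, of which 925 were CUTs. The 886 CUTs described here lie at least 30 kb from both ends of chromosomes I to XVI, as counted to the outermost row of each chromosome, and the other 39 lie nearer. Total RNA of exponentially growing *Saccharomyces cerevisiae* of the W303 background was sequenced in 8 libraries, 2 for each of 4 strains. The first, GPD-SIR3, expressed SIR3 from the strong constitutive GPD promoter, the promoter of the glyceraldehyde-3-phosphate dehydrogenase gene TDH3. The second, GPD-SIR3-A2Q, expressed in the same way the A2Q form of SIR3, in which glutamine replaces the alanine after the start methionine. The third, SIR3Δ, lacked SIR3, and the fourth was the wild type (WT). All 4 carried intact RNA decay factors as far as the labels say. Sir3 binds nucleosomes as a part of the SIR complex, which silences genes near chromosome ends and the silent mating-type cassettes. The question asked here was whether transcripts far from those ends changed with it.

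Levels are read counts scaled by 1 factor per library to the same total over genes, called scaled reads below. SIR3 itself had 10730 and 13865 scaled reads in GPD-SIR3, 13132 and 13217 in GPD-SIR3-A2Q, 39.1 and 36.8 in SIR3Δ, and 448 and 484 in WT. The levels in both GPD strains lay above WT and those in SIR3Δ below it. SIR3Δ was not at 0, and whether its reads fall on a part of the gene left in place cannot be read from counts per row. The libraries held 9.8 to 26.7 M reads over all rows, and a CUT away from the ends drew a median of 3 (GPD-SIR3 2) to 11 (SIR3Δ 1) reads. Between 56 (SIR3Δ 1) and 186 (GPD-SIR3-A2Q 1) of the 886 had no read in a library, and 7 had none in any. The counting kept strands apart. Over genes of at least 2000 scaled reads per kb, 10 antisense CUTs had a median of 10 scaled reads per kb, against 3475 for the genes they overlap.

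The sequences on which the results below turn come from the R64 genome, 5′ to 3′ on the strand of the transcript. The first is a stretch of 30 bases upstream of CUT268 at chrXII:675583-675612, with the letters of the a1-α2 operator core in capitals. This operator binds the a1-α2 repressor, which shuts haploid-specific genes in cells that express both mating types.
operator upstream of CUT268: aatccaTGTAAAAAAATACATCAatcataa
The others are the first 200 bases of 4 CUTs and the whole of CUT567, with the words GTAG and GTAA (bound by Nrd1) and TCTT (bound by Nab3) in capitals. CUT268 (chrXII:675697-675896, plus strand) was the one CUT that passed the test.
CUT268: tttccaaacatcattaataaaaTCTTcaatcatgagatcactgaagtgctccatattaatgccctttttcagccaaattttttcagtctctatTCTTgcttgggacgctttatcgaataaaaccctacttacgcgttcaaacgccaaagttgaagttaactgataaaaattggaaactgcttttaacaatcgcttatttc
CUT402 (chrXVI:76705-76904, plus strand) and CUT801 (chrXIV:107984-108183, minus strand) were called by DESeq2 in 1 comparison each.
CUT402: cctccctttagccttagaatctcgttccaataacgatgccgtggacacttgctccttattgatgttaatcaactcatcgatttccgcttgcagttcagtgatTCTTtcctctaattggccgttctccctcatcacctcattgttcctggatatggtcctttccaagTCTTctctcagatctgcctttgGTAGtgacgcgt
CUT801: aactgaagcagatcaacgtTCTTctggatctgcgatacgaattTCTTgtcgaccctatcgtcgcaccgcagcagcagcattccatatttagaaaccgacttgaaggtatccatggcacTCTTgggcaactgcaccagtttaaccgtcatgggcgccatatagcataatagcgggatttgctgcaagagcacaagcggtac
CUT597 (chrVII:345528-345727, minus strand) lies upstream of the α-factor gene MF(ALPHA)2, and CUT567 (chrV:431221-431365, minus strand) directly upstream of the snoRNA snR52.
CUT597: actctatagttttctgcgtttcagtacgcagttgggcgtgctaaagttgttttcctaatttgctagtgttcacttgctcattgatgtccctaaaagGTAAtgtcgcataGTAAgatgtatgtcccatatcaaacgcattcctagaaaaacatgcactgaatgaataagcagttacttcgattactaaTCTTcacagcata
CUT567: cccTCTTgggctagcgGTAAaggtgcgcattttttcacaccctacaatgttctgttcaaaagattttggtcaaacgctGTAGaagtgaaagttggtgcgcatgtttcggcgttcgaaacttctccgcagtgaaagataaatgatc

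Nab3 and Nrd1 words were frequent in the first 200 bases of the CUTs. Of the 729 CUTs of at least that length, 88.2% held TCTT on the transcript strand and 62.1% on the other strand. GTAG stood in 53.5% on the transcript strand and in 38.3% on the other, and GTAA in 70.0% and 55.8%. Among SUTs away from the ends TCTT stood in 71.0% on the transcript strand and in 74.0% on the other, among XUTs in 75.6% and 68.6%, and among genes in 58.2% and 86.3%. For GTAG the transcript strand shares were 47.6% in SUTs, 47.1% in XUTs and 33.4% in genes, and for GTAA 60.4%, 59.4% and 48.6%. The 5 transcripts printed above hold between 2 and 3 of these words in the stretch shown, and CUT268 and CUT801 hold TCTT alone. The mean over the CUT windows was 0.79 GTAG, 1.11 GTAA and 2.51 TCTT on the transcript strand, so the printed ones are not rich in them. No test was made of these shares, since many of the windows share bases. The gene windows start at the start codon, so they hold coding sequence. Of the 886 CUTs, 557 overlap a gene on the other strand, and the TCTT share of genes on their other strand was near that of the CUTs. The part of antisense coding sequence in the shares of the CUTs was not tested.

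CUTs had the lowest levels of the 4 classes compared. Per kb of transcript, the median CUT away from the ends had 9.52 scaled reads (interquartile range 4.84 to 19.2), against 13.3 for XUTs and 22.9 for SUTs away from the ends and 201 for genes. The 39 CUTs nearer to the ends had a median of 10.7. Of the 886 CUTs, 255 (28.8%) reached 10 scaled reads in at least 2 libraries and entered the tests, while 52.7% of these XUTs, 74.6% of these SUTs and 94.4% of genes did. The median CUT was 377 bases long. The 81 CUTs under 150 bases had a median of 30.2 scaled reads per kb, and 30.9% of them entered the tests. The extraction protocol notes that short fragments were removed after reverse transcription, and its part in these levels was not tested.

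**Figure D1:**
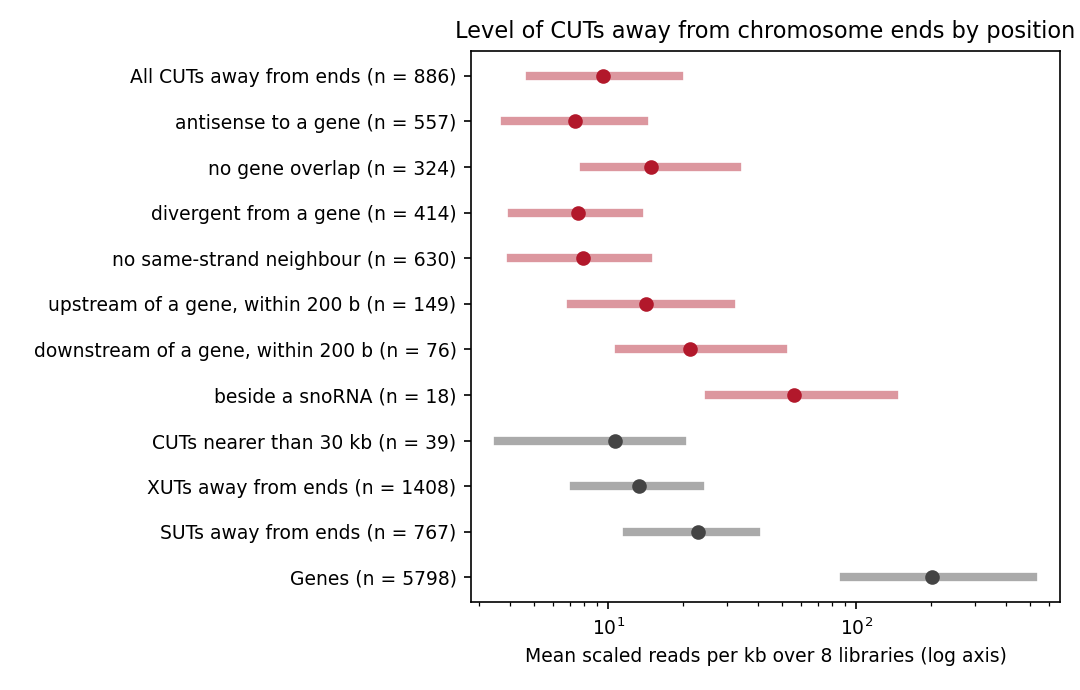
Scaled reads per kb, averaged over the 8 libraries, on a log axis. Dots are medians over transcripts and bars span their interquartile range. The CUTs away from the ends are red. Taken as a whole their median of 9.52 lies below the 22.9 of SUTs and the 201 of genes; by position it runs from 7.36 (antisense to a gene) to 55.8 (beside a snoRNA, above SUTs).

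Levels differed by position. Of the 886, 557 overlapped a gene on the other strand, 324 overlapped no gene and 5 overlapped a gene on the same strand. All 5 lie on chromosome XI, which holds 49 of the 886, and of 11 SUTs with such an overlap 8 lie there too. Whether the positions of CUTs on chromosome XI are those of R64 was not tested, so their place relative to genes is uncertain. Of these 49, 13 were tested, and none is named below. Antisense CUTs had a median of 7.36 scaled reads per kb and those without gene overlap 14.9. The 414 CUTs that start within 500 bases upstream of a gene on the other strand, called divergent, had a median of 7.55, and the other 472 had 12.5. A same-strand gene, snoRNA, tRNA, snRNA or ncRNA row stood within 200 bases of 256 CUTs. These had a median of 19.6 scaled reads per kb, against 7.86 for the 630 without such a neighbour. The 76 downstream of a gene had 21.3, the 149 upstream of one 14.2, and the 18 beside a snoRNA 55.8. Reads of the neighbour that run past its annotated end cannot be told apart from reads of the CUT in such places.

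The CUTs with the highest levels per kb showed this most. CUT677 (chromosome X, 139948 to 140116, minus strand) ends inside the first bases of the snoRNA snR190, which lies downstream on the same strand. It had 320251 and 114171 scaled reads in GPD-SIR3, 195236 and 239894 in GPD-SIR3-A2Q, 257693 and 283853 in SIR3Δ, and 255912 and 106116 in WT. The snoRNA itself had 427751 and 200793 in GPD-SIR3, 280674 and 341197 in GPD-SIR3-A2Q, 353103 and 381538 in SIR3Δ, and 376151 and 172048 in WT. Both rows were low in the same libraries, GPD-SIR3 2 and WT 2, and the strains overlapped. CUT677 made up 88.6% to 96.2% of all scaled reads on CUTs away from the ends, so a total over these CUTs is a total of CUT677.

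CUT567, whose sequence is given above, ends at the base before snR52, which guides ribosomal RNA methylation. It had 611 and 1003 scaled reads in GPD-SIR3, 592 and 2918 in GPD-SIR3-A2Q, 1744 and 2035 in SIR3Δ, and 3488 and 1672 in WT. The snR52 row had 1422 and 3725 in GPD-SIR3, 1377 and 11521 in GPD-SIR3-A2Q, 6346 and 8556 in SIR3Δ, and 13944 and 7032 in WT. In both rows the libraries GPD-SIR3-A2Q 1 and GPD-SIR3 1 were lowest and WT 1 and GPD-SIR3-A2Q 2 highest, so the libraries of GPD-SIR3-A2Q lay farther apart than any pair of strain means. In GPD-SIR3 against WT the log2 fold change of CUT567 was −1.62 ± 0.63 (SE, limma, adjusted p = 0.462). Whether CUT567 is a transcript of its own or a part of a longer one with snR52 was not tested.

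CUT628 (chromosome VII, 882575 to 882719, minus strand) lies 92 bases downstream of TDH3, whose promoter drives SIR3 in the GPD strains. It had 2154 and 1495 scaled reads in GPD-SIR3, 2262 and 3212 in GPD-SIR3-A2Q, 2912 and 2799 in SIR3Δ, and 3123 and 2028 in WT. GPD-SIR3 2 was the lowest of the 8, and no comparison passed the test (limma, lowest adjusted p = 0.442, GPD-SIR3 against GPD-SIR3-A2Q). CUT484 (chromosome IV, 309525 to 309717, minus strand), 84 bases downstream of the ribosomal stalk gene RPP1A, ranged from 565 in GPD-SIR3 2 to 994 in SIR3Δ 2. CUT153 (chromosome VII, 700099 to 700675, plus strand), which overlaps the leucine tRNA gene tL(GAG)G, ranged from 1077 in GPD-SIR3 1 to 2409 in GPD-SIR3-A2Q 2.

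The sixth, CUT015, had no same-strand neighbour of this kind near it. It lies on chromosome II from 326296 to 326776 on the plus strand and averaged 624 ± 98 scaled reads in GPD-SIR3, 617 ± 126 in GPD-SIR3-A2Q, 736 ± 22 in SIR3Δ and 683 ± 62 in WT (SD, n = 2 each). The libraries overlapped in all 4 comparisons, and its log2 fold changes ran from −0.16 to 0.11.

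In scaled reads, the summed level of CUTs without a same-strand neighbour overlapped between WT and each of the other strains. It was 3624 ± 6.4 scaled reads in GPD-SIR3, 3821 ± 309 in GPD-SIR3-A2Q, 4294 ± 245 in SIR3Δ and 4039 ± 610 in WT (SD, n = 2 each). The WT libraries spanned 3608 to 4470 and the other 6 libraries 3602 to 4467. Both libraries of GPD-SIR3 and both of GPD-SIR3-A2Q lay below both of SIR3Δ (4467 and 4121). As a share of the reads over all rows, both GPD strains also lay below both WT libraries (0.0430% and 0.0387%). The shares were 0.0344% and 0.0369% in GPD-SIR3 and 0.0356% and 0.0380% in GPD-SIR3-A2Q. SIR3Δ, at 0.0432% and 0.0396%, overlapped WT. The comparison of the GPD strains with WT thus depends on the scaling. CUT015, at the level given above, is a part of each sum. With 2 libraries a side the smallest p that an exact permutation test allows is 0.333, so these sums and shares were not tested. The number of CUTs with at least 1 read at the depth of the shallowest library was 714 ± 7.0 in GPD-SIR3, 714 ± 62.0 in GPD-SIR3-A2Q, 744 ± 35.5 in SIR3Δ and 723 ± 5.7 in WT (SD, n = 2 each). In RNA from a whole culture, fewer cells with a transcript and less RNA per cell cannot be told apart.

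Replicates of a strain differed more for CUTs than for genes. The median absolute log2 difference between the libraries of a strain was 0.50 in GPD-SIR3, 0.45 in GPD-SIR3-A2Q, 0.41 in SIR3Δ and 0.55 in WT for tested CUTs, and 0.15 to 0.23 for genes. For 143 genes within the interquartile range of the levels of tested CUTs it was 0.43 to 0.59. No label states whether the 2 libraries of one strain were grown apart, and the p-values below therefore measure the spread of these 8 libraries alone. Fold changes are on the log2(scaled reads + 1) scale, which understates changes of low transcripts, with p adjusted over all 8566 rows tested. The median SE of a log2 fold change was 0.50 for CUTs and 0.18 for genes.

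No CUT away from the ends changed in GPD-SIR3 against WT at an adjusted p below 0.05 (limma), where 1.55% of all tested rows were called. At an unadjusted p below 0.05, 20 of 255 passed, 2 higher and 18 lower, and 9.04% of all rows did. edgeR (1.51% of all rows), DESeq2 (2.45%) and limma-voom (1.2%) called none of the CUTs either. The median log2 fold change of the 255 was −0.26, beside 0.02 for all rows, −0.04 for SUTs, −0.04 for XUTs and 0.03 for the 143 genes of the same level. By position it was −0.31 for the 115 tested CUTs within 200 bases of a same-strand row and −0.19 for the 140 without one. For the 40 downstream of a gene, where reads of the neighbour cannot be told apart, it was −0.39. The libraries did not overlap with GPD-SIR3 lower for 66 CUTs (25.9%) and with GPD-SIR3 higher for 28 (11.0%), against 16.8% and 18.4% of all rows. The genes of the same level had shares near those of the CUTs, 21.7% lower and 11.2% higher, with 14 lower and 2 higher at an unadjusted p below 0.05. Unlike the CUTs, 5 of these 143 genes were called lower and 0 higher at an adjusted p below 0.05 (limma). With WT 2 left out the median of the 255 CUTs was −0.41, with WT 1 left out −0.09 and with GPD-SIR3 2 left out −0.15. It stayed below 0 in all alternatives run. WT 1 exceeded WT 2 by a median of 0.34 (log2) over the same CUTs, which is more than the difference between the strains. GPD-SIR3 2 was also the shallowest library.

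In GPD-SIR3-A2Q against WT limma called no CUT, with 0.537% of all rows called. At an unadjusted p below 0.05 there were 19, 7 higher and 12 lower, and 7.09% of all rows. edgeR (0.572% of all rows) and limma-voom (0.584%) called no CUT. DESeq2 called CUT801 higher and CUT268 lower, with 1.12% of all rows. The median log2 fold change was −0.09 for the CUTs and −0.03 for all rows, and it turned to 0.08 without WT 1. It was −0.27 without WT 2 and −0.15 without GPD-SIR3-A2Q 2. The libraries did not overlap with GPD-SIR3-A2Q higher for 35 CUTs (13.7%) and lower for 50 (19.6%), against 17.2% and 21.6% of all rows and 18.2% and 20.3% of the genes of the same level.

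In SIR3Δ against WT limma called 1 CUT, CUT268, which fell, and 0.981% of all rows were called (0.841% lower). At an unadjusted p below 0.05, 14 CUTs passed, 9 higher and 5 lower, against 7.61% of all rows. edgeR (0.957% of all rows), DESeq2 (1.39%) and limma-voom (0.992%) each called CUT268 lower and no CUT higher. The median log2 fold change was 0.09, beside −0.05 for all rows, 0.01 for SUTs and 0.00 for XUTs, and it was −0.04 without WT 2. With SIR3Δ 1 left out it was 0.01, with SIR3Δ 2 left out 0.24, and with WT 1 left out 0.22. The libraries did not overlap with SIR3Δ higher for 59 CUTs (23.1%) and lower for 36 (14.1%), while 14.3% and 24.8% of all rows and 14.7% and 25.9% of the genes of the same level did so. All 3 comparisons against WT share the WT libraries.

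In GPD-SIR3 against GPD-SIR3-A2Q limma called no CUT, with 1.81% of all rows called. At an unadjusted p below 0.05, 24 passed, 5 higher and 19 lower, against 10.5% of all rows. DESeq2 called CUT268 and CUT402, both higher in GPD-SIR3 (2.61% of all rows), and edgeR (1.72%) and limma-voom (1.51%) called none. The median log2 fold change was −0.14, beside 0.04 for all rows, and −0.05 without GPD-SIR3 2 or −0.23 without GPD-SIR3-A2Q 1. The libraries did not overlap for 40 CUTs with GPD-SIR3 higher (15.7%) and 68 with GPD-SIR3 lower (26.7%), against 23.8% and 16.7% of all rows and 19.6% and 16.8% of the genes of the same level. Of these 143 genes, limma called 7 lower and 0 higher.

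**Figure D2:**
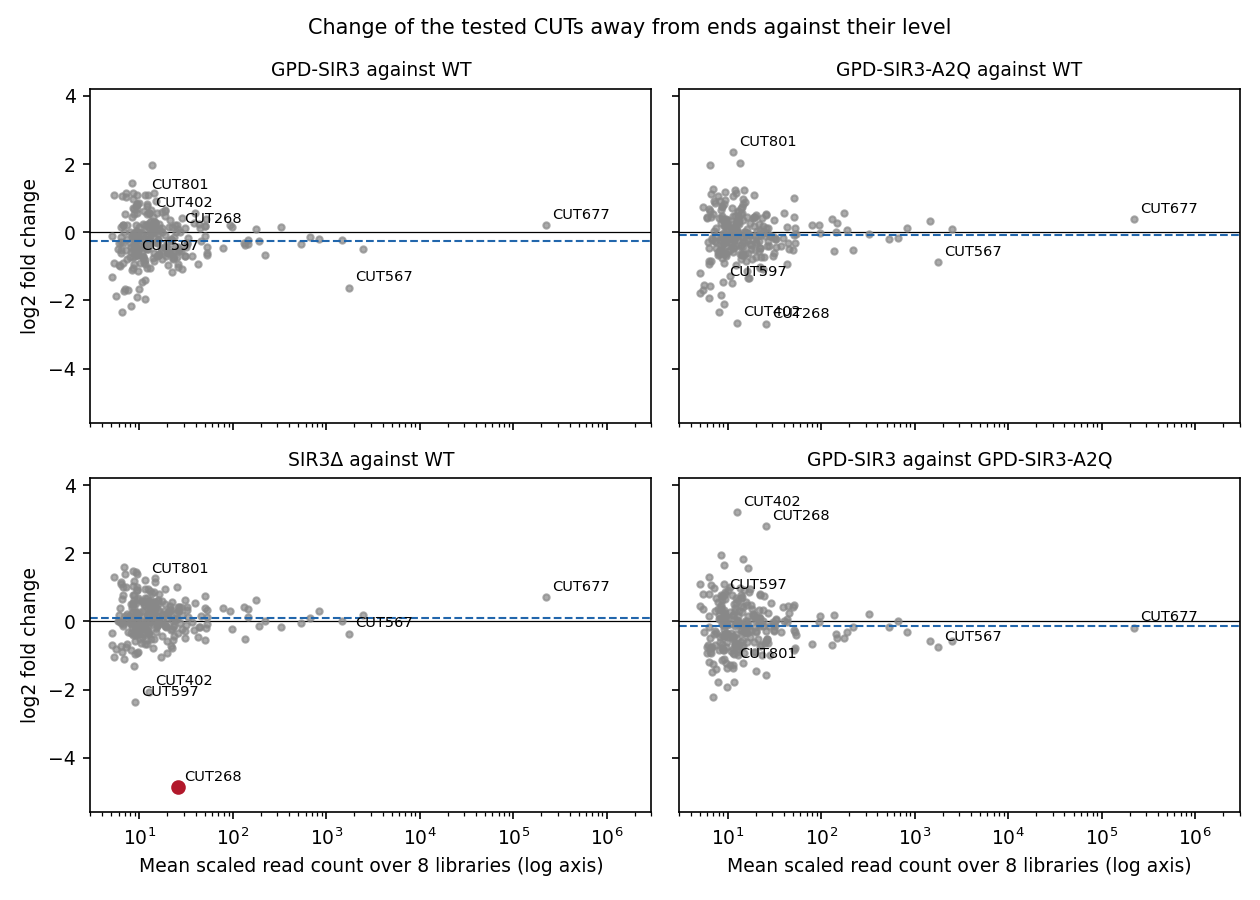
Log2 fold change of each of the 255 tested CUTs against its mean scaled read count over the 8 libraries (log axis), one panel per comparison. Red marks an adjusted p below 0.05 (limma), the dashed line is the median of the CUTs and the names are CUTs described in the text. CUT268 in SIR3Δ against WT, at −4.87, is the one red point.

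CUT268 nearly vanished in the strain without SIR3. It lies on chromosome XII from 675697 to 676465 on the plus strand, 401 kb from the nearer end. Its reads numbered 116 and 45 in GPD-SIR3, 5 and 18 in GPD-SIR3-A2Q, 4 and 0 in SIR3Δ, and 122 and 67 in WT. In scaled reads these were 52.2 and 45 in GPD-SIR3, 2.92 and 12.1 in GPD-SIR3-A2Q, 1.55 and 0 in SIR3Δ, and 52.7 and 39.4 in WT. The GPD-SIR3 and WT libraries lay together above 39, and every SIR3Δ and GPD-SIR3-A2Q library lay below 13. The 0 in SIR3Δ 2 allows up to 1.45 scaled reads at a floor of 3 reads, for counting error only.

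The log2 fold change of CUT268 was −4.87 ± 0.65 in SIR3Δ against WT (SE, limma, adjusted p = 0.00714). It was −2.70 ± 0.65 in GPD-SIR3-A2Q against WT (adjusted p = 0.222, limma; 9.3e-04, DESeq2) and 0.09 ± 0.65 in GPD-SIR3 against WT (adjusted p = 0.990, limma). Between GPD-SIR3 and GPD-SIR3-A2Q it was 2.79 ± 0.65 (adjusted p = 0.0912, limma; 3.1e-04, DESeq2). With 1 library fewer the SIR3Δ call was lost narrowly, at an adjusted p of 0.0512 when SIR3Δ 2 was left out, 0.0866 for WT 1 and 0.0505 for WT 2 (limma). The size depends on the pseudocount and the tool, and ran from −2.37 to −6.12 in the alternatives with all libraries.

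CUT268 starts 242 bases from the start of NEJ1, on the other strand, and runs antisense over the 3′ part of PDR8. NEJ1 encodes a factor of non-homologous end joining that is made in haploid cells, and PDR8 a transcription factor of the drug resistance network. The 17 bases of the operator in the stretch printed first lie 108 to 92 bases upstream of CUT268, between the start of NEJ1 and the end of PDR8. NEJ1 had 48.6 and 103 scaled reads in GPD-SIR3, 21.0 and 12.7 in GPD-SIR3-A2Q, 8.53 and 8.72 in SIR3Δ, and 73.5 and 80.0 in WT. As at CUT268, GPD-SIR3 and WT lay above both other strains, and both SIR3Δ libraries were lowest. NEJ1 fell in SIR3Δ against WT by 3.01 on the log2 scale (SE 0.40, limma adjusted p = 0.00674) and rose in GPD-SIR3 relative to GPD-SIR3-A2Q by 2.05 (adjusted p = 0.038, limma). In GPD-SIR3-A2Q against WT it had −2.16 (adjusted p = 0.072, limma).

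PDR8, on the strand opposite CUT268, had 141 and 188 scaled reads in GPD-SIR3, 158 and 168 in GPD-SIR3-A2Q, 150 and 190 in SIR3Δ, and 140 and 161 in WT. The strains overlapped, with log2 fold changes of at most 0.17 (SE 0.20). CUT268 shares its bases with XUT1052 and the row 12F-272, so the same reads stand in all 3 rows and are not separate evidence. CUT267 lies on the same strand, antisense within NEJ1 from 674449 to 675137. It had 5 and 3 reads in GPD-SIR3, 1 and 9 in GPD-SIR3-A2Q, 9 and 14 in SIR3Δ, and 9 and 6 in WT, which was too few to test.

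**Figure D3:**
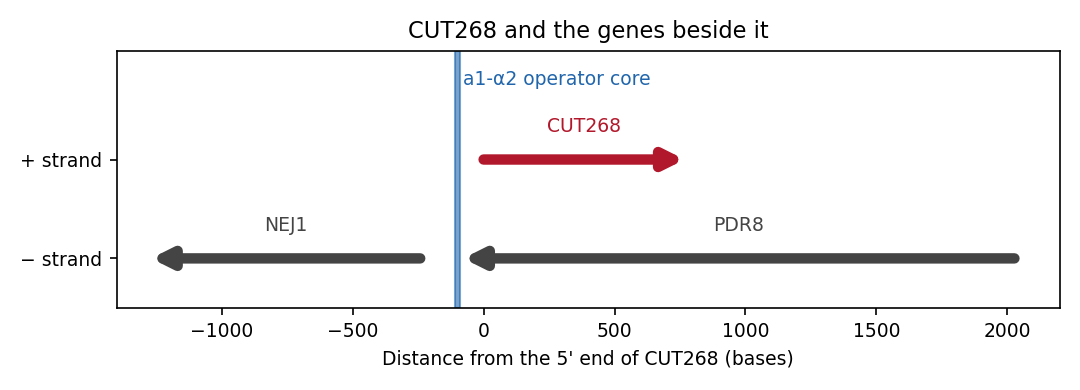
Map of CUT268 (red, plus strand) and of NEJ1 and PDR8 (grey, minus strand) by distance in bases from the 5′ end of CUT268. Arrowheads give the direction of transcription. The blue line marks the operator core, 108 to 92 bases upstream of CUT268, between NEJ1 and PDR8.

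**Figure D4:**
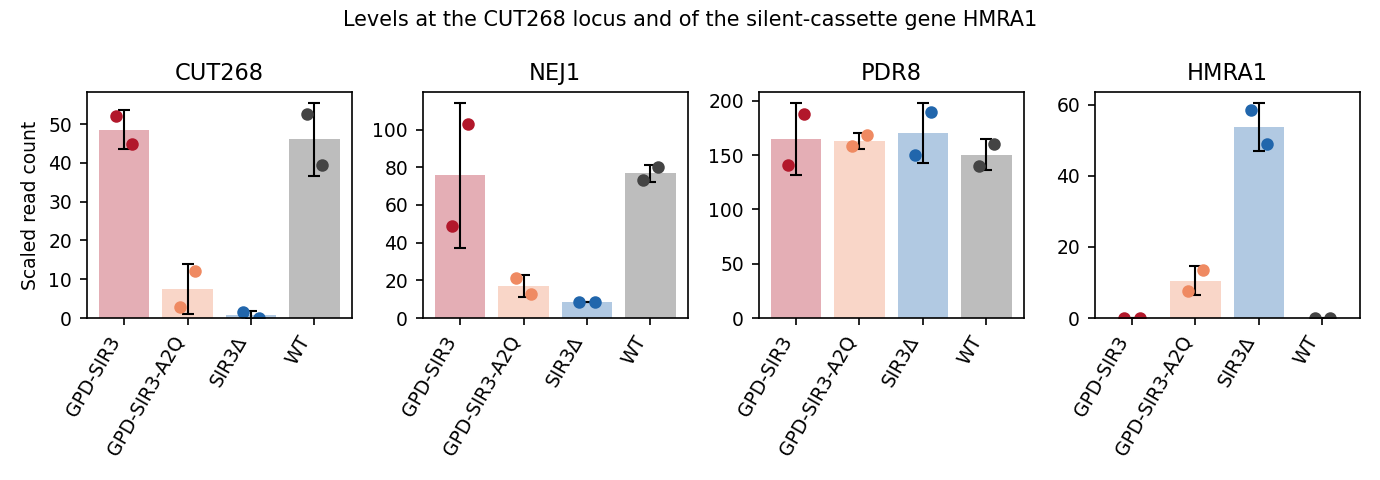
Scaled read counts of CUT268, NEJ1, PDR8 and HMRA1 in the 4 strains. Dots are libraries, bars their mean and error bars the SD (n = 2). CUT268 and NEJ1 are low in GPD-SIR3-A2Q and SIR3Δ, PDR8 is level, and HMRA1 is seen in those 2 strains and listed at 0 in GPD-SIR3 and WT.

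The operator core was searched as TGT, then 7 bases of any kind, then TACATCA, on both strands in the 300 bases upstream of every transcript. CUT268 was the 1 CUT of 886 that held it (0.113%). It stood upstream of none of the 39 CUTs nearer to the ends and none of 767 SUTs, of 2 of 1408 XUTs (XUT1052 at the same site, and XUT0196), and of 4 of 5394 genes (0.0742%), which were NEJ1, MATALPHA1, MATALPHA2 and RPS22A. The NEJ1 match is the same site as that of CUT268, and the haploid-specific gene FUS3 was not among the matches. The search was not among the sequence features planned beforehand, so the match at CUT268 is a description. A match describes the letters only. Less exact forms of the operator were not searched.

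HMRA1, the silent-cassette copy of the gene for the a1 subunit, had 7.58 and 13.4 scaled reads in GPD-SIR3-A2Q, 58.5 and 48.9 in SIR3Δ, and 0 in both GPD-SIR3 and both WT libraries. Of 11 haploid-specific genes, 9 fell in GPD-SIR3-A2Q against WT and 10 fell in SIR3Δ against WT (limma), with medians of −2.16 and −4.24. None passed in GPD-SIR3 against WT (median −0.01; 0 at an unadjusted p below 0.05), and 10 were called higher in GPD-SIR3 against GPD-SIR3-A2Q. All 5 α-specific genes fell in GPD-SIR3-A2Q and in SIR3Δ against WT and none passed in GPD-SIR3 (1 at an unadjusted p below 0.05). Of 6 a-specific genes, 3 were tested and none was called in any comparison, with 1 at an unadjusted p below 0.05 in GPD-SIR3-A2Q against WT. In each case where limma called none, edgeR, DESeq2 and limma-voom called none either. The part of these mating-type genes in the level of CUT268 was not tested.

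No other CUT away from the ends overlapped an α-specific or haploid-specific gene or began within 500 bases of its start and passed the filter on low values. CUT007 (chromosome II, 191991 to 192343, plus strand) starts upstream of FUS3, the mating MAP kinase gene, and had 12 and 9 reads in GPD-SIR3, 4 and 8 in GPD-SIR3-A2Q, 13 and 1 in SIR3Δ, and 1 and 14 in WT. FUS3 itself fell in SIR3Δ against WT by 6.43 on the log2 scale (limma, adjusted p = 8.62e-06). CUT217 (chromosome X, 585648 to 585904, plus strand), upstream of STE18 for the γ subunit of the pheromone-receptor G protein, had 0 and 0 reads in GPD-SIR3, 2 and 1 in GPD-SIR3-A2Q, 1 and 0 in SIR3Δ, and 4 and 8 in WT. Neither CUT had enough reads to compare strains. None lay at SIR3 or at IME4, the meiotic gene that is held off by an antisense transcript in haploid cells.

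The following CUTs were chosen after their values were seen. Among them CUT402, CUT801 and CUT205 share same-strand bases with another non-coding row, as do 144 of the 255 tested CUTs. Reads on shared bases cannot be assigned to the CUT alone. CUT597 lies 141 bases upstream of MF(ALPHA)2 on the same strand. It had 10.3 and 9 scaled reads in GPD-SIR3, 5.25 and 5.37 in GPD-SIR3-A2Q, 4.65 and 0.969 in SIR3Δ, and 10.4 and 25.3 in WT. SIR3Δ was below WT in both libraries, at a log2 fold change of −2.37 ± 0.65 (SE, limma, adjusted p = 0.276). MF(ALPHA)2 had 2129 and 1540 in GPD-SIR3, 120 and 133 in GPD-SIR3-A2Q, 6.20 and 6.78 in SIR3Δ, and 2174 and 2177 in WT. The order of the strains was the same for gene and CUT, but the CUT did not pass.

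CUT402 spans chromosome XVI from 76705 to 79569 on the plus strand, antisense to GYP5 (a GTPase-activating protein of vesicle traffic) and divergent from the ribosomal protein gene RPL36B. It had 30.1 and 22 scaled reads in GPD-SIR3, 0 and 7.38 in GPD-SIR3-A2Q, 3.88 and 2.91 in SIR3Δ, and 15.1 and 19.4 in WT. As at CUT268, GPD-SIR3 and WT were high and both other strains low. In GPD-SIR3 against GPD-SIR3-A2Q its log2 fold change was 3.21 ± 0.86 (SE, limma, adjusted p = 0.146; 0.0254 with DESeq2), and 0.00899 without GPD-SIR3-A2Q 2 (limma). In GPD-SIR3-A2Q against WT it was −2.65 ± 0.86 (adjusted p = 0.538, limma), with an adjusted p of 0.0305 without GPD-SIR3-A2Q 2. GYP5 stayed within 224 to 338 and RPL36B within 4589 to 5698 scaled reads in all 8 libraries.

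CUT801 (chromosome XIV, 107159 to 108183, minus strand) runs antisense to POP3, a subunit gene of RNase P and RNase MRP, and is divergent from the Hsp90 co-chaperone gene HCH1. It had 9 and 8 scaled reads in GPD-SIR3, 35.0 and 13.4 in GPD-SIR3-A2Q, 7.75 and 11.6 in SIR3Δ, and 3.46 and 3.53 in WT. The WT libraries were the lowest of the 8. In GPD-SIR3-A2Q against WT its log2 fold change was 2.34 ± 0.54 (SE, limma, adjusted p = 0.194; 0.0173 with DESeq2). POP3 ranged from 102 to 154 scaled reads and HCH1 from 471 to 712, with overlap between strains in both.

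CUT887 (chromosome XVI, 187837 to 188061, minus strand) lies 111 bases upstream of NAB3, the gene of the termination factor that binds TCTT. It had 4.50 and 2 scaled reads in GPD-SIR3, 16.9 and 12.1 in GPD-SIR3-A2Q, 9.69 and 9.69 in SIR3Δ, and 10.4 and 13.5 in WT. Both GPD-SIR3 libraries were the lowest, at −1.91 ± 0.49 against GPD-SIR3-A2Q and −1.66 ± 0.49 against WT (log2, SE, limma, adjusted p = 0.130 and 0.243). NAB3 had 977 and 808 in GPD-SIR3, 1099 and 924 in GPD-SIR3-A2Q, 906 and 942 in SIR3Δ, and 866 and 786 in WT, with overlap between GPD-SIR3 and WT.

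The lowest p in GPD-SIR3 against WT belonged to CUT205 and CUT496. CUT205 (chromosome X, 180800 to 180936, plus strand) had 3.15 and 4 scaled reads in GPD-SIR3, 13.4 and 6.71 in GPD-SIR3-A2Q, 7.75 and 8.24 in SIR3Δ, and 19.9 and 12.9 in WT. Its log2 fold change against WT was −1.91 ± 0.50 (SE, limma, adjusted p = 0.166). CUT496 (chromosome IV, 555407 to 555647, minus strand), 78 bases downstream of the glycolytic gene TPI1, had 188 and 145 in GPD-SIR3, 178 and 190 in GPD-SIR3-A2Q, 251 and 285 in SIR3Δ, and 287 and 242 in WT. Both strains with SIR3 under the GPD promoter lay below both others. Its log2 fold change was −0.67 ± 0.18 in GPD-SIR3 (adjusted p = 0.167, limma) and −0.52 ± 0.18 in GPD-SIR3-A2Q against WT (adjusted p = 0.597, limma).

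The log2 fold changes of CUTs were set beside those of their neighbours on either strand. Over 78 pairs of a tested CUT and its divergent gene, Pearson's r between their log2 fold changes was −0.13 in GPD-SIR3 against WT, 0.31 in GPD-SIR3-A2Q against WT, 0.55 in SIR3Δ against WT and 0.30 in GPD-SIR3 against GPD-SIR3-A2Q. Without CUT268 and NEJ1 these were −0.13, 0.05, 0.07 and 0.04. Over 150 pairs with an antisense gene (139 CUTs) r lay between −0.06 and 0.10. With the same-strand row within 200 bases (114 pairs) it was 0.21, 0.41, 0.52 and 0.26 in the same order of comparisons. These pairs include CUT597 and MF(ALPHA)2, with −2.37 and −8.18 in SIR3Δ and −1.46 and −4.09 in GPD-SIR3-A2Q against WT. A single pair so far out can raise r, and r without it was not computed. Genes and CUTs of a pair come from the same libraries, so these values are given with no test.

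Few partner genes were themselves called. Divergent from a tested CUT, NEJ1 and CHS1 fell in SIR3Δ against WT, and NEJ1 rose in GPD-SIR3 relative to GPD-SIR3-A2Q. CHS1, a chitin synthase gene, fell by 0.97 on the log2 scale (SE 0.14, limma adjusted p = 0.0134), and its CUT806 (chromosome XIV, 275271 to 276079, minus strand) had −1.32 ± 0.48 (adjusted p = 0.544, limma). CUT806 had 13.5 and 9 scaled reads in GPD-SIR3, 5.83 and 8.05 in GPD-SIR3-A2Q, 5.43 and 3.39 in SIR3Δ, and 12.1 and 12.3 in WT, so SIR3Δ and WT did not overlap. Antisense to INO1, the gene of inositol-phosphate synthase, CUT200 had 8.55 and 10 in GPD-SIR3, 10.5 and 4.02 in GPD-SIR3-A2Q, 10.5 and 13.6 in SIR3Δ, and 4.32 and 6.47 in WT. INO1 was higher in GPD-SIR3 than in WT by 2.14 on the log2 scale (limma, adjusted p = 0.00089), and CUT200 had 0.70 ± 0.54 (adjusted p = 0.794, limma). With GPD-SIR3-A2Q as the comparison INO1 was also higher in GPD-SIR3, by 1.71 (limma, adjusted p = 0.00295), where CUT200 had 0.43 ± 0.54 (adjusted p = 0.813, limma). In the same comparison GDH2, a glutamate dehydrogenase gene, was higher by 0.61 (limma, adjusted p = 0.041), and CUT050, antisense to it, had 0.07 ± 0.56 (adjusted p = 0.977, limma).

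Another called gene lies opposite a more abundant CUT. CUT826 (chromosome XV, 158918 to 159462, minus strand) lies 85 bases downstream of the alcohol dehydrogenase gene ADH1 and antisense to YOL086W-A. It had 178 and 158 scaled reads in GPD-SIR3, 198 and 219 in GPD-SIR3-A2Q, 181 and 186 in SIR3Δ, and 224 and 180 in WT. YOL086W-A had 474 and 634 in GPD-SIR3, 522 and 516 in GPD-SIR3-A2Q, 104 and 69.8 in SIR3Δ, and 99.9 and 87.0 in WT. It rose against WT by 2.54 in GPD-SIR3 (log2, limma, adjusted p = 0.000368) and by 2.46 in GPD-SIR3-A2Q (adjusted p = 0.00121). CUT826 had −0.26 ± 0.17 in GPD-SIR3 (adjusted p = 0.736, limma) and 0.05 in GPD-SIR3-A2Q against WT (adjusted p = 0.965, limma).

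The genes of the machinery that ends and degrades CUTs did not pass the test in any comparison. None of 24 genes of early termination and the nuclear exosome was called by limma, with medians of 0.04, 0.04, −0.05 and −0.03 in the order of comparisons above. At an unadjusted p below 0.05 there was 1 in each comparison except SIR3Δ against WT, which had 0. NRD1, the RNA-binding subunit of the termination complex, averaged 376 ± 22 scaled reads in GPD-SIR3, 412 ± 86 in GPD-SIR3-A2Q, 406 ± 17 in SIR3Δ and 356 ± 53 in WT (SD, n = 2 each). RRP6, the nuclear exosome exonuclease, averaged 996 ± 134 in GPD-SIR3, 1020 ± 47 in GPD-SIR3-A2Q, 930 ± 98 in SIR3Δ and 949 ± 69 in WT (SD, n = 2 each). The libraries of RRP6 overlapped between all strains, while for NRD1 both SIR3Δ libraries lay above both GPD-SIR3 and both WT libraries. NRD1 had a log2 fold change of 0.20 ± 0.17 in SIR3Δ against WT (SE, limma, adjusted p = 0.865).

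None of 14 genes of cytoplasmic decay was called, nor at an unadjusted p below 0.05, and XRN1 had log2 fold changes of −0.17 to 0.20 (limma). None of 15 genes that hold back cryptic and antisense transcription was called either, nor at an unadjusted p below 0.05. For these lists edgeR, DESeq2 and limma-voom called none in any comparison. Among them the elongation factor gene SPT6 had −0.12 to 0.06 and the histone methyltransferase gene SET2 −0.09 to −0.03 (log2).

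The CUTs called in GPD-SIR3 lay nearer to the ends than 30 kb, and the difference between near and far CUTs was not tested. Of the 39 CUTs nearer to the ends, 10 were tested and 3 were called lower in GPD-SIR3 both against WT and against GPD-SIR3-A2Q (limma), where none of the 255 was. DESeq2 also called 3 of the 10 lower in both comparisons, and edgeR and limma-voom 2. Of all rows, 1.39% were called lower against WT and 1.32% against GPD-SIR3-A2Q. CUT124 (5659 bases from the end of chromosome VI) had 1 and 0 reads in GPD-SIR3, 39 and 27 in GPD-SIR3-A2Q, 35 and 36 in SIR3Δ, and 17 and 19 in WT. CUT572 (8944 bases from the end of chromosome V) had 0 and 0 reads in GPD-SIR3, 35 and 15 in GPD-SIR3-A2Q, 60 and 19 in SIR3Δ, and 17 and 23 in WT. CUT353 (19497 bases from the end of chromosome XIV) had 4 and 3 in GPD-SIR3, 33 and 25 in GPD-SIR3-A2Q, 48 and 58 in SIR3Δ, and 61 and 20 in WT. In GPD-SIR3-A2Q and SIR3Δ against WT none of the 10 was called by limma, edgeR, DESeq2 or limma-voom, and none had an unadjusted p below 0.05 by limma (edgeR and limma-voom 1 each, in GPD-SIR3-A2Q).

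**Figure D5:**
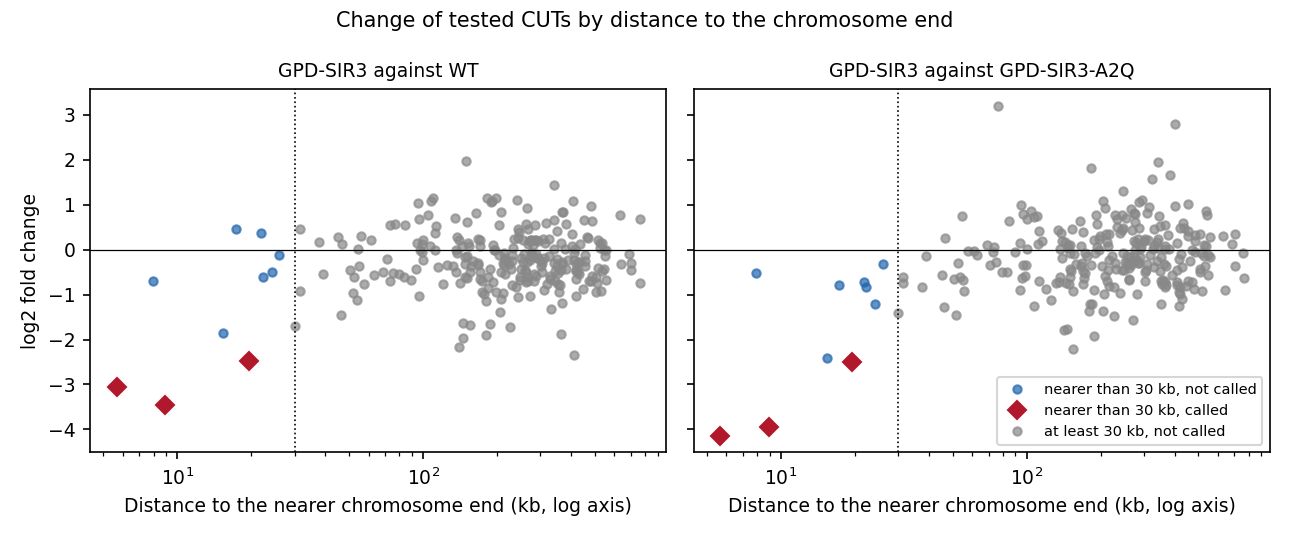
Log2 fold change of tested CUTs against the distance to the nearer chromosome end in kb (log axis), for GPD-SIR3 against WT and against GPD-SIR3-A2Q. The dotted line is the limit of 30 kb, blue points are the tested CUTs nearer than it and grey points the 255 beyond it. The red diamonds, 3 CUTs called lower in GPD-SIR3, all lie left of the line.

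Just inside the limit, 42 CUTs lay 30 to 50 kb from an end, of which 8 were tested and none was called by limma, edgeR, DESeq2 or limma-voom. At an unadjusted p below 0.05 there was 1 in each comparison against WT and 2 in GPD-SIR3 against GPD-SIR3-A2Q. The nearest inside was CUT001 (chromosome I, 30073 bases from the end), with 10 and 1 reads in GPD-SIR3, 7 and 21 in GPD-SIR3-A2Q, 12 and 25 in SIR3Δ, and 25 and 15 in WT. The next, CUT437 (chromosome I, 30533 bases), had 1 and 2 in GPD-SIR3, 2 and 7 in GPD-SIR3-A2Q, 22 and 0 in SIR3Δ, and 1 and 5 in WT. Just outside, CUT461 (chromosome III, 29909 bases) had no read in any library. CUT169 (chromosome VII) had 4 and 2 in GPD-SIR3, 4 and 0 in GPD-SIR3-A2Q, 5 and 4 in SIR3Δ, and 16 and 1 in WT.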

How the data were processed

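Reads of paired-end SOLiD libraries were aligned with TopHat 1.4.1 to genome build R64, per the submitters' processing notes; the counting tool is not given in the sources used here. Library GPD-SIR3 2 holds whole counts, as deposited by the authors. The values of the other 7 libraries, as deposited, are a signal, counts times 1 factor per library, so that genes sum to 7006670 in each, and whole reads were recovered for 100% of values (tolerance 0.01 of a read). Another 16 columns of per-sample values were not used. R64 coordinates are counted from 1, and 5738 of 5775 nuclear genes had the coordinates of the reference annotation.

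All 4 strains entered 1 limma 3.58.1 (trend) model in R 4.3.3 on log2(scaled reads + 1), over 8566 rows with at least 10 scaled reads in at least 2 libraries, with no further scaling. The model left 4 residual degrees of freedom. Calls are two-sided at a Benjamini-Hochberg adjusted p below 0.05. Alternatives were pseudocounts of 10 and 0.5, other filters, TMM (edgeR 4.0.16) and DESeq2 1.42.0 size factors, edgeR, DESeq2 and limma-voom on recovered reads, the compared groups alone, non-coding rows alone, a replicate block, each library left out, a limit of 50 kb, and CUTs without shared bases. The fit was also run on simulated data with known changes, planted in tested rows of any type. It was not run for CUTs alone, so it does not show which changes could be missed among them.

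CUTs were named by rule: called CUTs, the 6 highest per kb, the 2 on each side of the limit, and those at SIR3, IME4 or mating-type genes. CUT597, CUT402, CUT801, CUT887, CUT205, CUT496, CUT806, CUT200, CUT050 and CUT826 fall outside it and were chosen after their values were seen. Genes were those beside them and up to 4 of each list. The CUTs, lists and rules were chosen with earlier results of these data known.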

Additional observations from a re-analysis of the deposited data

How the results depend on the processing

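The count of called CUTs stayed at 0 in GPD-SIR3 against WT in every alternative run, replicates left out included. In GPD-SIR3-A2Q against WT it was 1 with a pseudocount of 10 and 2 with DESeq2. In GPD-SIR3 against GPD-SIR3-A2Q it was 1 with a pseudocount of 10, 1 with non-coding rows alone and 2 with DESeq2. In SIR3Δ against WT it was 0 with a mean of at least 50 scaled reads (24 CUTs tested, CUT268 not among them) and 0 among the 110 tested CUTs that share no same-strand bases with another non-coding row, since CUT268 shares some. With the 242 tested CUTs outside chromosome XI, an alternative chosen after seeing the data, the counts were 0, 0, 1 and 0 and no median changed sign. With 1 library left out it ran from 0 to 0 in GPD-SIR3 against WT, and from 0 to 1 in the other 3 comparisons; the lone library of a strain is then assumed to vary like the other groups. CUT268 in GPD-SIR3 against WT, never called, had 0.09, and −0.02 without GPD-SIR3 1; with 1 library left out it ran from −0.12 (WT 2) to 0.29 (WT 1). The median of the CUTs changed sign in GPD-SIR3-A2Q against WT when WT 1 (0.08) or GPD-SIR3-A2Q 1 (0.00) was left out and at a mean of at least 50 (0.08), and in SIR3Δ against WT without WT 2 (−0.04). Titles share replicate numbers. Same-numbered libraries deviated together in some pairs of strains and not in others (r from −0.03 to 0.36, highest for SIR3Δ and WT). Whether the numbers mark libraries handled together cannot be told from these values or from the labels. With the replicate block the counts of called CUTs were 0, 0, 1 and 0, as without it. At a median of 3 to 11 reads per CUT and library, 255 of the 886 CUTs could be tested.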
